A study of Mus musculus with 16 samples.

Results

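Salt was compared with normal medium in resting mouse dendritic cells, that is, in cells that received no LPS, the bacterial cell wall component that activates them. The comparison set 4 arrays of cells grown at 450 mOsm/L against 4 arrays of cells grown at 290 mOsm/L, of 16 arrays in the series, and covered 10236 genes of the 19272 with a probe set of their own. A gene entered the tests when at least 4 of the 16 arrays lay above 6.83, the median of all values on the log2 scale. All cultures came from C57BL/6 marrow and received GM-CSF (10 ng/mL), so both groups share strain and cytokine. In the 450 mOsm group NaCl was added from day 3, and all cells were harvested on day 7 and replated for 6 h before RNA was taken. The same 4 mice, named here by the numbers 1 to 4 of the labels, gave cells to both groups and to the LPS groups at the same osmolarities (10 ng/mL). The labels used here state neither age nor sex of the mice.

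Dendritic cells take up antigen, display it on MHC molecules and prime T cells. GM-CSF cultures of marrow yield dendritic cells together with macrophage-like cells and leftover granulocytes, and such cultures serve as the standard source of these cells for experiments. Extra NaCl draws water out of cells. Most cells answer over hours by importing or making small organic solutes, largely under the transcription factor Nfat5, so osmolyte transporter genes mark an effective treatment.

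Those osmolyte genes, with the neutrophil and interferon-stimulated genes, were set apart as 3 lists so that the rest of the transcriptome could be described. Slc6a12, the betaine transporter gene, read 8.46, 8.38, 8.51 and 8.69 at 290 mOsm in mice 1 to 4 and at least 11.73 at 450 mOsm, a rise of 3.38 ± 0.07. The cells were also checked against their label. The integrin gene Itgax, which encodes CD11c, read 12.05 to 12.19 at 290 mOsm and 11.80 to 12.02 at 450 mOsm, and the class II gene H2-Ab1 read 13.33 to 13.42 and 13.37 to 13.44. Zbtb46, a transcription factor gene of conventional dendritic cells, stayed near the filter level (6.68 to 6.92 and 6.81 to 7.06), and the growth factor receptor gene Flt3 lay below it on all 8 arrays. The summed linear signal of 19 dendritic cell markers was 24300 to 25495 at 290 mOsm and 23836 to 26798 at 450 mOsm. That of 19 macrophage markers was 78693 to 81958 and 69211 to 73622. The 450 mOsm array of mouse 4 stood farthest from its group, with a median correlation of 0.9897 across genes with the other 3, against 0.9922 to 0.9952 for the other 7 arrays.

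Limma called 4530 of the 10236 genes at a Benjamini-Hochberg adjusted p under 0.05, which is 44.3% of the genes tested. Of these, 2104 were higher at 450 mOsm (20.6%) and 2426 lower (23.7%). Most changes were small. The median size of a called change was 0.285 on the log2 scale, the median standard error was 0.0671, and 90 genes rose and 114 fell at least 2-fold. Outside the 3 lists 4415 genes were called, with 66 rises and 93 falls of at least 2-fold. The direction held in 4 of 4 mice for 1896 of the called rises and 2262 of the called falls. The lowest array of one group lay above the highest of the other for 1536 of the 2104 called rises and 1961 of the 2426 called falls. Groups that do not overlap are thus common among called genes, and are given below for single genes only as description.

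The balance of rises and falls depended on how the arrays were scaled. Centring each array on its median over the tested genes gave 2721 higher and 1987 lower, and centring on the median over all probe sets gave 1343 and 3047. Without mouse 2 the fit gave 1346 higher and 1854 lower. The 2 centrings moved the median change over all genes from 0.001 to 0.043 and to -0.055. Among the tested genes the dimmest 2048 held 26.7% called higher and 12.8% called lower, with a median of 0.097. The brightest 2047 held 19.3% and 28.5%, with a median of -0.028. The part of the arrays' distributions in this tilt was not tested. Small shifts are therefore given below as counts beside the background shares of 20.6% and 23.7%, and each list that is given a direction kept the sign of its median under quantile normalization, cyclic loess and both centrings unless stated.

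**Figure D1:**
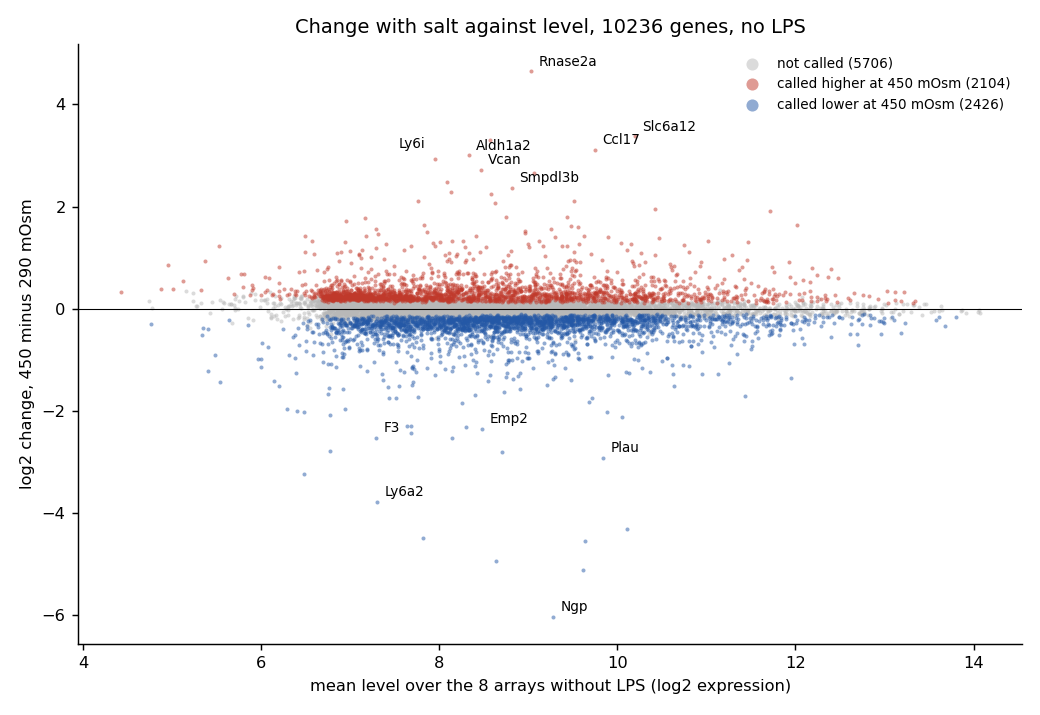
Log2 change from 290 to 450 mOsm without LPS (vertical axis) against the mean log2 level over the 8 arrays (horizontal axis), 1 point per gene, with called rises in red and called falls in blue. Changes of at least 2-fold occur over most of the range of levels, and the largest rise and fall are those of Rnase2a (4.65) and Ngp (-6.03).

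**Figure D2:**
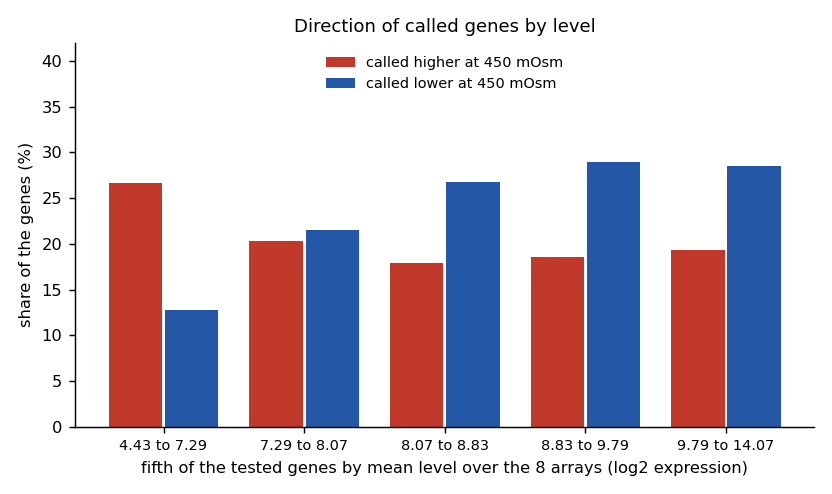
Share of genes called higher (red) or lower (blue) at 450 mOsm in each 20% of the 10236 genes, ordered by mean log2 level over the 8 arrays. Rises outnumber falls in the dimmest 20% (26.7% against 12.8%), and falls outnumber rises in each of the 3 brightest groups.

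The 12 raised genes described first have the largest rises under the naming rule, which leaves out the 3 lists and symbols starting with Rn. Ccl17 encodes a chemokine that attracts T cells carrying the receptor Ccr4. It read 8.79, 8.48, 7.66 and 7.83 at 290 mOsm in mice 1 to 4, and 11.88, 12.06, 10.67 and 10.60 at 450 mOsm. Mice 1 and 2 were the higher pair in both media, and the groups did not overlap. The rise was 8.63-fold (log2 3.11 ± 0.30, limma adjusted p = 2.93e-07). Aldh1a2, the enzyme gene that lets dendritic cells make retinoic acid, read 7.30, 6.99, 6.42 and 6.58 in normal medium and 10.00, 10.23, 9.50 and 9.61 in salt, a rise of 3.01 ± 0.17. Ly6i, a gene for a GPI-anchored surface protein, went from 6.55, 6.70, 6.09 and 6.61 to 9.96, 9.65, 9.10 and 8.94 (2.93 ± 0.17). Vcan, which encodes the matrix proteoglycan versican, had 7.00, 7.40, 6.94 and 7.08 at 290 mOsm and 10.25, 9.97, 9.62 and 9.46 at 450 mOsm (2.72 ± 0.14). For Ly6i and Vcan every salt array lay at least 2 log2 units above every control array.

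Smpdl3b, a membrane phosphodiesterase gene that restrains Toll-like receptor signalling, read 7.61, 7.79, 7.47 and 7.66 and then 10.43, 10.12, 9.74 and 9.72 (2.37 ± 0.13). Slco4a1, a gene of the organic anion transporter family, was the most even of the large rises: it read 7.01, 6.99, 6.90 and 7.07 at 290 mOsm and 9.26, 9.22, 9.31 and 9.32 at 450 mOsm, a change of 2.28 ± 0.05 (limma adjusted p = 1.34e-15). Its change in single mice ran from 2.23 to 2.41. Serpinb2, the gene for plasminogen activator inhibitor 2, read 7.03 to 7.86 at 290 mOsm and 9.38 to 10.13 at 450 mOsm, a rise of 2.25 ± 0.16. Saa3, an acute phase gene, rose by 2.11 ± 0.14, and Cfb, the complement factor B gene, by 2.07 ± 0.14. The lectin gene Mgl2 rose by 1.95 ± 0.21, the kallikrein gene Klk1b11 by 1.92 ± 0.19 and the fatty acid desaturase gene Scd1 by 1.80 ± 0.18. In all 12 of these genes the groups did not overlap, and the largest limma adjusted p was 8.10e-07, for Mgl2. Both follow in large part from choosing called genes with the largest changes.

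Rnase2a, which encodes an eosinophil-type ribonuclease, rose more than any other gene tested, and is not among the 12 because that rule left out its symbol. Its values were 7.29, 7.03, 6.14 and 6.37 at 290 mOsm and 12.02, 11.75, 11.05 and 10.61 at 450 mOsm, a 25.1-fold rise (4.65 ± 0.37, limma adjusted p = 2.44e-08). Its mean at 290 mOsm lay below the filter level, as did those of Aldh1a2 and Ly6i, so these folds start from dim values. Rnase2a, Ly6i, Mgl2 and Klk1b11 belong to families of similar genes whose transcripts may share probes. Klk1b1 (1.32) and Klk1b27 (1.08), which flank Klk1b11 among the tested genes, rose too. Siglecf, a receptor gene used as an eosinophil marker, also rose (0.75 ± 0.10), while the eosinophil granule gene Prg2 (-0.70 ± 0.12) and the receptor gene Ccr3 (-0.66 ± 0.09) fell. The 3 tested eosinophil markers are thus split, and 4 of the 7 on the array lay below the filter level on all 8 arrays.

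The steepest of these rises by test statistic included further genes with little spread. Mrps6, a mitochondrial ribosomal protein gene, read 8.93, 8.83, 8.73 and 8.81 and then 10.06, 10.05, 10.03 and 10.06 (1.23 ± 0.06). In the RefSeq annotation Mrps6 overlaps Slc5a3, the inositol transporter gene, which rose by 2.47 ± 0.09, so the 2 values may not be independent. Gda, the guanine deaminase gene, rose by 1.61 ± 0.07, the zinc importer gene Slc39a4 by 1.53 ± 0.07 and the serine protease gene Htra4 by 1.62 ± 0.08. Iqgap2, a scaffold gene of the actin cortex, rose by 1.05 ± 0.05, and it overlaps a receptor gene that moved the opposite way. The naming rule took only called genes with the same direction in 4 of 4 mice, so agreement among mice in these 5 is no separate result.

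Among the 12 lowered genes chosen by the same rule, Ly6a2 fell most. It is a Ly6 surface protein gene that lies beside Ly6i among the tested genes, and it went the opposite way. It read 8.91, 9.06, 9.16 and 9.65 at 290 mOsm and 5.45, 5.76, 5.21 and 5.24 at 450 mOsm, which is 13.7-fold lower (-3.78 ± 0.16, limma adjusted p = 7.04e-12). All 4 salt values lay below the filter level. The neutrophil gene Ly6g follows it on the chromosome and fell by 3.23 ± 0.17 on the log2 scale. Members of this family may share probes, and neutrophil genes fell together, with 28 of 32 tested lower and a summed linear signal of 57946 to 67805 at 290 mOsm against 30184 to 33209 at 450 mOsm. The part of neutrophil RNA in the Ly6a2 value was not tested.

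Next came Plau and F3. Plau, which encodes the urokinase plasminogen activator, read 11.51, 11.41, 11.11 and 11.20 in normal medium and 8.18, 8.25, 8.48 and 8.63 in salt (-2.92 ± 0.11). F3, the gene for tissue factor, the starter of coagulation, read 8.69, 8.94, 8.22 and 8.37 and then 5.90, 6.03, 6.04 and 6.15 (-2.52 ± 0.15). Both were far apart between groups, and the salt values of F3 were all below the filter level. With Serpinb2 higher, a plasminogen activator gene and an inhibitor gene of the same system moved in opposite directions. Emp2, a tetraspan membrane protein gene, also had little spread, with 9.75, 9.65, 9.62 and 9.60 against 7.26, 7.12, 7.40 and 7.44 (-2.35 ± 0.08). The chemokine gene Cxcl14 fell by 2.32 ± 0.11 and Nes, the gene of the intermediate filament nestin, by 2.31 ± 0.10. Pdgfb, the platelet-derived growth factor B gene, read 10.71, 11.04, 10.78 and 11.05 at 290 mOsm and 8.77, 8.78, 8.98 and 8.97 at 450 mOsm (-2.02 ± 0.10). The peptide genes Cck (-2.08 ± 0.15) and Penk (-1.85 ± 0.13) and the zinc finger gene Zfp558 (-1.96 ± 0.16) fell as well.

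The falls with the largest test statistics included, beside Plau, Emp2 and Ly6a2, genes with tight values such as Efr3b (8.24 to 8.50 against 6.55 to 6.71), a membrane scaffold gene, and Rgs1 (10.53 to 10.71 against 8.60 to 9.03), a gene that shortens G protein signals. Mmp13, the collagenase 3 gene, was bright in both media, with 12.44, 12.40, 12.13 and 12.19 at 290 mOsm and 10.35, 10.61, 10.72 and 10.66 at 450 mOsm (-1.70 ± 0.08). No value of Efr3b, Rgs1 or Mmp13 overlapped between the groups, which their choice by test statistic favours.

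**Figure D3:**
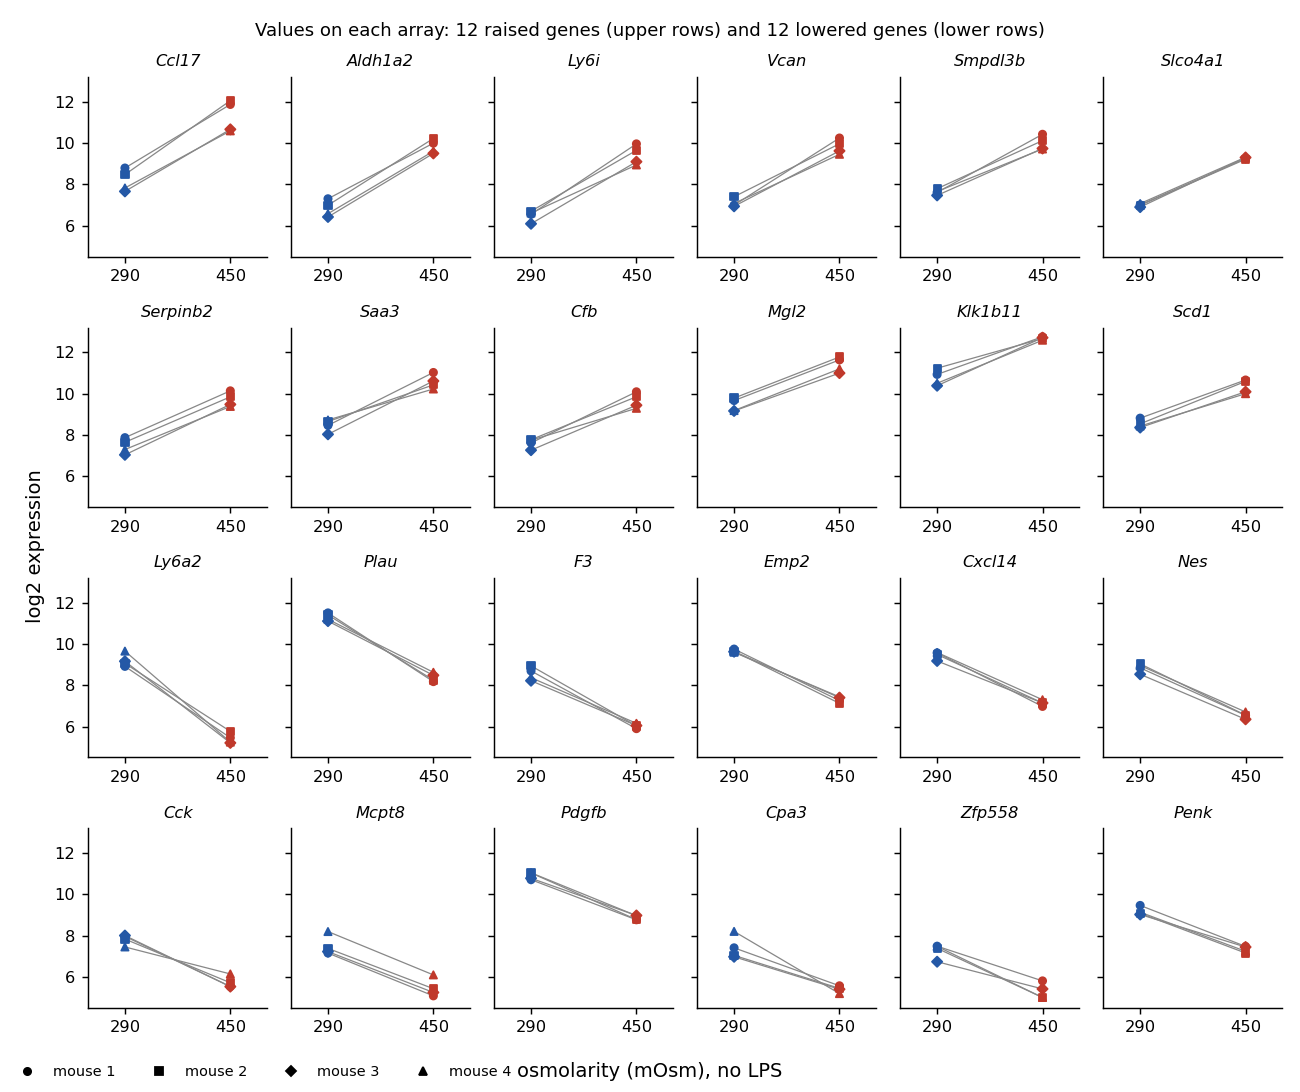
Log2 expression of 12 raised genes (upper 2 rows) and 12 lowered genes (lower 2 rows) on the 4 arrays at 290 mOsm (blue) and the 4 at 450 mOsm (red), without LPS; lines join the arrays of 1 mouse. In each panel the 2 groups do not overlap, the 4 lines of Slco4a1 nearly coincide, and mouse 4 stands highest at 290 mOsm for Mcpt8 and Cpa3.

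Promoter sequences show where known motifs lie in front of these genes. The RefSeq promoter table (build GRCm38.p6) spans 250 bases before to 50 after a start site, and 8256 of the tested genes had an entry. The AP-1 element, bound by Fos and Jun proteins, was searched as TGANTCA on both strands. It was present for 6.33% of all tested genes with an entry and for 19.4% of the 67 with an entry among those lowered at least 2-fold outside the 3 lists. The corresponding share for the raised genes was 7 of 54, and for interferon-stimulated genes, of which 71 of 94 rose, it was 24.6%. The core of the tonicity element bound by Nfat5, TGGAAA on either strand, was present for 18.7% of all, 29.6% of the raised and 19.4% of the lowered genes. Its share was 30.5% for genes of ribosome production, of which 0 were called higher, and 31.9% for interferon-stimulated genes. In the osmolyte list it was present for 3 of 14 genes (21.4%), so the core is not particular to raised genes. A 6-letter core occurs often by its shortness, and a match is a description of the letters, not a bound site.

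The 200 bases before the start are shown for 2 lowered genes with AP-1 matches (F3 at chr3:121723337-121723536, plus strand, with matches 146 and 135 bases before the start, and Mmp13 at chr9:7272314-7272513, plus strand, 35 bases before it), with the match in capitals.
F3: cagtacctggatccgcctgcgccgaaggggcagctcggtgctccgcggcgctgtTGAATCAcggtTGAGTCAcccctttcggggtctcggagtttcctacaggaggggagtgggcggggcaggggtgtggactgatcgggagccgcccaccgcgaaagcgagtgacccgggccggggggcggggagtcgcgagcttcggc
Mmp13: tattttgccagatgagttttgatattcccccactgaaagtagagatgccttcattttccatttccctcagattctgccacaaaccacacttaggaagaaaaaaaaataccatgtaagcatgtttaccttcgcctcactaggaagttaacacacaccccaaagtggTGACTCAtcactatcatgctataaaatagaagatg

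For 3 of the most raised genes the same stretch holds a TonE core, in capitals: Ccl17 at chr8:94810253-94810452, plus strand, 149 bases before the start, Mgl2 at chr11:70130157-70130356, plus strand, 146 bases before it, and Smpdl3b at chr4:132757172-132757371, minus strand, 117 bases before it. In Mgl2 and Smpdl3b the core lies on the other strand and is printed as its reverse complement. The stretch of the lowered gene Mmp13 above also holds this core as its reverse complement, TTTCCA, left there in small letters.
Ccl17: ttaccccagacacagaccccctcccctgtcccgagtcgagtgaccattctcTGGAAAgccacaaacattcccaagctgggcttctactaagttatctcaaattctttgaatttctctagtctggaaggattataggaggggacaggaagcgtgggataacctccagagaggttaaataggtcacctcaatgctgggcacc
Mgl2: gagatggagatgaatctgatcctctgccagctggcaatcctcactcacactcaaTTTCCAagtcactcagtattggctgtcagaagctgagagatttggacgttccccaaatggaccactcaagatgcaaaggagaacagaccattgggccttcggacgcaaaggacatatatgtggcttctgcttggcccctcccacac
Smpdl3b: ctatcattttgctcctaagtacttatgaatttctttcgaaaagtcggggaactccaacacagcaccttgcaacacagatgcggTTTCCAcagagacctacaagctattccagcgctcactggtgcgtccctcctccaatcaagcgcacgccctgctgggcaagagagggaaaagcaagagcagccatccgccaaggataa

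Other motifs gave the following shares. The C/EBP element TTNNGCAA was found for 10.0% of all, 24.1% of the raised and 13.4% of the lowered genes. The purine-rich core GAGGAA, which Spi1 binds, was found for 30.7%, 46.3% and 43.3%. The E-box CACGTG was found for 12.1%, 9.26% and 8.96%, and CCAAT for 41.8%, 40.7% and 37.3%.

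Dendritic cell identity genes moved in both directions. Of 15 tested markers 4 rose and 4 fell, and 4 and 7 after centring on all probe sets. The rises were led by the lectin genes Mgl2 and Clec10a (1.08 ± 0.18) and the peptidase gene Dpp4 (0.72 ± 0.20), and the falls by Fscn1, the actin bundler of mature dendritic cells (-0.72 ± 0.13), the maturation marker Cd83 (-0.56 ± 0.12) and Itgax (-0.22 ± 0.07). Clec10a lies beside Mgl2 among the tested genes, and its mean at 290 mOsm (6.05) was below the filter level. The Mgl2 and Clec10a values may therefore not be independent. The Dpp4 call was lost without mouse 2 (limma adjusted p = 0.0657), and the Itgax call after quantile normalization (0.0711), centring on the tested genes (0.0585) and cyclic loess (0.0974), and without mouse 3 (0.0828) or mouse 4 (0.132). Zbtb46 (0.12 ± 0.06, limma adjusted p = 0.114) and Flt3 (-0.24 ± 0.10, adjusted p = 0.0618) did not pass. Flt3 did pass, as lower, after quantile normalization (adjusted p = 0.0137), cyclic loess (0.0157) and centring on all probe sets (0.0258). In bulk RNA, fewer cells of a type and less RNA per cell cannot be told apart, here and for all lists below.

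Genes of antigen display rose in part. For MHC class I, 11 of 19 tested genes rose (57.9%) and 2 fell, with a median of 0.185 (7 higher without mouse 2, and after centring on all probe sets). Nlrc5, the activator of class I genes, read 8.92, 9.01, 9.04 and 8.92 at 290 mOsm and 10.13, 9.79, 9.98 and 9.72 at 450 mOsm (0.93 ± 0.07). The class I gene H2-Q4 (0.69 ± 0.08) and the peptide transporter gene Tap1 (0.46 ± 0.08) followed, while H2-M2 (-0.51 ± 0.11) fell. Many of these genes respond to interferon too, and 71 of 94 interferon-stimulated genes rose beside them. For class II, 4 of 16 rose and 2 fell, with 1 fall when mouse 1, 2 or 3 was left out. Ciita, the master regulator of class II genes, read 9.76, 9.70, 9.96 and 9.67 and 10.76, 10.66, 10.53 and 10.48, a rise of 0.84 ± 0.10, and H2-Oa (0.48 ± 0.09) and H2-Eb1 (0.20 ± 0.04) rose with it. H2-Ab1, near the top of the scale, differed by 0.03 ± 0.04 (limma adjusted p = 0.538). The protease gene Ctsl, whose product processes antigen, fell by 0.49 ± 0.06.

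Costimulation genes split evenly, with 7 of 24 higher and 7 lower. Pdcd1lg2, the gene for the inhibitory ligand PD-L2, read 8.58, 8.61, 8.27 and 8.45 and then 10.26, 10.19, 9.79 and 9.93 (1.57 ± 0.12). Cd28, better known as a T cell receptor for costimulation, read 8.26 to 8.71 at 290 mOsm and 9.60 to 9.94 at 450 mOsm (1.32 ± 0.11). Pvr, a ligand gene for Cd226 and Tigit (-0.71 ± 0.09), and Cd200, a gene for an inhibitory ligand (-0.55 ± 0.10), fell. Of the classical activation genes Cd80 fell slightly (-0.28 ± 0.06), while Cd86 (0.15 ± 0.12, limma adjusted p = 0.292) and Cd40 (0.08 ± 0.07, adjusted p = 0.364) did not pass. The migration receptor gene Ccr7 did not pass either (0.02 ± 0.13, adjusted p = 0.904).

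Growth factor and cytokine genes that changed by a large amount mostly fell. Of 29 tested cytokine and growth factor genes, 8 fell and 4 rose (7 and 2 without mouse 1). Changes of at least 1.5-fold were 7 of the falls and 1 of the rises. The share of falls, 27.6%, was near the background share of 23.7%. The list's median was 0.02, but -0.002 after quantile normalization and -0.036 after centring on all probe sets. The list as a whole is therefore given no direction. Besides Pdgfb, the EGF-type factor gene Hbegf read 8.67, 8.59, 8.12 and 8.31 and 6.79, 7.04, 6.86 and 7.29 (-1.43 ± 0.12), and Csf1, the macrophage growth factor gene, read 9.40, 9.48, 8.92 and 9.21 and 7.80, 7.95, 7.73 and 7.87 (-1.42 ± 0.09). Neither gene's groups overlapped. Tnf fell by 1.01 ± 0.14, and its change in single mice ran from -1.61 to -0.37. Il6 was dim on all 8 arrays (at most 4.77) and was called higher by 0.33 ± 0.09 from 290 values of 4.13 to 4.39, a call lost without mouse 1 (limma adjusted p = 0.07) or mouse 3 (0.0511). Il1b (0.02 ± 0.17, limma adjusted p = 0.933) and Il10 (0.02 ± 0.12, adjusted p = 0.925) did not pass. Il12b lay at the threshold (-0.38 ± 0.15, adjusted p = 0.0505): it passed with the mouse as a replicate block (0.0391), and under 11 of the 25 alternatives in all, with the largest size without mouse 3 (-0.59, 0.0068). Il12b did not pass the filter when that used only the 8 arrays without LPS, so it was tested through LPS arrays. The apoptosis ligand gene Tnfsf10 rose (0.93 ± 0.13), but all 8 of its values (4.69 to 5.33 and 5.56 to 6.24) lay below the filter level, and it was tested through LPS arrays. Ebi3, a cytokine subunit gene, rose by 0.41 ± 0.07.

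Chemokine genes had 5 of 25 higher and 9 lower, with 3 higher when mouse 1, mouse 3, the 290 mOsm array of mouse 3 or the 450 mOsm array of mouse 1 was left out. Against the rise of Ccl17 stood Cxcl14 and Ccl2, the monocyte attractant gene, which read 9.79, 9.33, 8.83 and 9.05 at 290 mOsm and 7.42, 7.65, 7.54 and 7.61 at 450 mOsm (-1.69 ± 0.14). Ccl24, an eosinophil attractant gene, rose by 0.73 ± 0.10. Pf4, a platelet chemokine gene, fell by 1.51 ± 0.08. Of 11 erythroid and megakaryocyte markers 5 lay below the filter level on all 8 arrays. The list's summed linear signal was 6266 to 8388 at 290 mOsm and 3767 to 4316 at 450 mOsm. That sum includes Pf4 itself (means 11.39 and 9.88) and its neighbour Ppbp (11.29 and 10.18). These genes supply most of its drop, so the sum gives no separate view of Pf4. The part of such cells in the Pf4 value was not tested.

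Receptors for cytokines split into 13 higher and 19 lower of 43, or 8 and 18 without mouse 2. Il2ra, a subunit gene of the interleukin 2 receptor, rose by 1.31 ± 0.19 and Il1r2, the decoy receptor gene for interleukin 1, by 1.13 ± 0.10. Met, the receptor gene for hepatocyte growth factor, fell by 1.16 ± 0.13, and Tgfbr1, a TGF-beta receptor subunit gene, read 10.71 to 10.83 at 290 mOsm and 9.75 to 10.01 at 450 mOsm (-0.87 ± 0.07). The osteoclast receptor gene Tnfrsf11a fell by 0.76 ± 0.06. Among 20 chemoattractant receptor genes, Ccr9 (1.33 ± 0.12) and Cxcr4 (0.67 ± 0.09) rose, and the oxysterol receptor gene Gpr183 (-0.78 ± 0.13) and Ccr1 (-0.73 ± 0.08) fell. Ccr9 is also a marker of plasmacytoid dendritic cells. The 8 markers of those cells had a summed linear signal of 3009 to 3354 at 290 mOsm and 4154 to 4625 at 450 mOsm. That sum includes Ccr9 itself and rests mostly on Bst2, its brightest member, with means of 11.13 and 11.71. Of the 7 markers tested, 5 lay in the dimmest 20%. The part of such cells in the Ccr9 value was not tested.

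Sensors of microbes showed more rises than falls, 15 and 9 of 38 (39.5% and 23.7%), but 10 and 11 when centred on all probe sets, which turned their median from 0.049 to -0.007. The LPS co-receptor gene Cd14 read 10.73, 10.80, 10.59 and 10.72 at 290 mOsm and 11.74, 11.53, 11.76 and 11.65 at 450 mOsm (0.96 ± 0.06). Tlr2, a lipoprotein sensor gene, rose by 0.81 ± 0.13, the DNA sensor gene Tlr9 by 0.80 ± 0.09 and Tlr4 by 0.51 ± 0.08. Lbp, the gene of the protein that hands LPS to Cd14, fell by 0.93 ± 0.12, and Tlr1 by 0.57 ± 0.06. The Cd14 and Tlr9 groups did not overlap.

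More receptor genes for debris and modified lipids fell than rose. Of 24 scavenger and clearance receptor genes, 12 fell and 5 rose, with a median of -0.175. Each mouse 1 to 3 left out gave 2 or 3 rises, as did 5 of the 8 single arrays (both of mouse 3, 290 mOsm of mouse 1, and 450 mOsm of mice 2 and 4). Olr1, which takes up oxidised lipoprotein, fell by 1.17 ± 0.13, Marco, which binds bacteria and particles, by 1.10 ± 0.10 and the integrin gene Itgb3 by 0.84 ± 0.10. The macrophage markers showed a like pattern, with 10 of 18 lower (55.6%), 4 higher and a median of -0.2; Vsig4 (-0.77 ± 0.19) and Mertk (-0.64 ± 0.06), both receptors for clearing cells or complement-tagged targets, fell with Marco, which is on both lists. Centring on all probe sets left 1 of the 18 macrophage markers higher and 11 lower. Rises numbered 1 without mouse 2, and 2 without mouse 1, its 290 mOsm array or the 450 mOsm array of mouse 4.

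Monocyte markers had 4 of 9 higher and 2 lower. The rises were led by Vcan, the peptidase gene Ace (1.10 ± 0.09) and the fractalkine receptor gene Cx3cr1 (0.65 ± 0.10). Plac8 fell (-0.99 ± 0.16), but its values (6.16 to 6.78 and 5.34 to 5.75) lay below the filter level on all 8 arrays. The markers' summed linear signal was 10185 to 10794 at 290 mOsm and 12411 to 15728 at 450 mOsm. That sum includes Vcan and rests largely on its brightest member, which reached 13.3 on the log2 scale. Of 16 mast cell and basophil markers on the array, 11 lay below the filter level on all 8 arrays. The others entered the tests largely through their values at 290 mOsm or with LPS, so their joint direction is not counted here. The granule protease gene Mcpt8 read 7.16, 7.38, 7.23 and 8.20 at 290 mOsm and 5.08, 5.43, 5.25 and 6.10 at 450 mOsm (-2.03 ± 0.26), and the carboxypeptidase gene Cpa3 read 7.41, 7.04, 6.98 and 8.21 and 5.57, 5.45, 5.40 and 5.19 (-2.01 ± 0.25). The protease gene Prss34 fell by 1.51 ± 0.24. In normal medium mouse 4 had the highest value of each of these 3 genes. The summed linear signal of the list was 1375 to 2167 in normal medium and 894 to 960 in salt.

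More genes of the early response, which follows a stimulus within minutes, fell than rose. Of 35 immediate early and AP-1 genes 16 fell (45.7%) and 5 rose, with a median of -0.137. Egr1, a zinc finger factor gene induced by growth signals, read 8.55, 8.58, 8.11 and 8.51 at 290 mOsm and 6.93, 7.02, 6.74 and 7.06 at 450 mOsm (-1.50 ± 0.10). Egr2 fell by 1.13 ± 0.08, with 11.20 to 11.56 against 10.13 to 10.32, and Fos, the AP-1 subunit gene, read 9.06 to 9.59 against 8.01 to 8.49 (-1.07 ± 0.12). The Egr1, Egr2 and Fos groups did not overlap. The 5 rises were led by Klf2 (0.86 ± 0.07) and Klf4 (0.60 ± 0.08), factors of quiescent and monocytic cells, and Ier3 (0.61 ± 0.10).

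Feedback inhibitors of growth factor signalling moved both ways. Of 30 such genes 8 rose and 11 fell (5 and 10 without mouse 4). Dusp6, a phosphatase gene for the ERK kinases, read 9.54, 9.54, 9.44 and 9.59 and then 8.31, 8.20, 8.33 and 8.27 (-1.25 ± 0.08). Dusp4 (-1.04 ± 0.14) and Spred1 (-0.78 ± 0.07), which also restrain that pathway, fell, while the cytokine signal inhibitor gene Socs2 rose by 0.94 ± 0.11. Dusp10 (0.53 ± 0.09), a phosphatase gene for the stress kinases, rose too. Among p53 targets 15 of 33 fell (45.5%) and 5 rose, with a median of -0.17. Rises numbered 3 without mouse 1 or its 450 mOsm array, and 2 without mouse 4. The cyclin gene Ccnd1 (-1.30 ± 0.13), the stress kinase gene Plk3 (-1.12 ± 0.11) and Sesn1 (-0.85 ± 0.08) fell, and Trp53i11 (0.96 ± 0.09) and the death receptor gene Fas (0.61 ± 0.08) rose.

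Genes of ribosome production fell in large part. Cells build ribosomes in the nucleolus, where RNA polymerase I makes ribosomal RNA and processing factors trim and fold it. Of 71 tested genes of this list, 43 fell (60.6%) and 0 rose, and the median was -0.209. Nop58, a core protein of the particles that modify ribosomal RNA, read 9.66, 9.77, 9.27 and 9.48 at 290 mOsm and 8.68, 8.48, 8.93 and 8.58 at 450 mOsm (-0.88 ± 0.10). Myc, the transcription factor gene that drives this programme in growing cells, read 9.69, 9.59, 9.34 and 9.48 and 8.72, 8.73, 8.71 and 8.63 (-0.83 ± 0.10). Tsr1, a 40S assembly factor gene, read 8.66, 8.81, 8.08 and 8.52 and 7.55, 7.67, 7.78 and 7.78 (-0.82 ± 0.12). In Nop58 and Tsr1 mouse 3 moved least. At an unadjusted p under 0.05 the same limma fit had 1 higher and 48 lower. Quantile normalization gave 39 falls and 1 rise, cyclic loess 42 and 1, and centring on the tested genes 38 and 1.

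Of 60 translation factor genes 24 fell (40.0%) and 4 rose (1 rise without mouse 1 or mouse 2), led by the synthetase complex gene Eef1e1 (-0.97 ± 0.09) and the elongation factor gene Eef1a2 (-0.83 ± 0.10). Of 18 tRNA synthetase genes 4 rose and 2 fell. Of 41 constitutive proteasome subunit genes 18 fell (43.9%) and 0 rose, none by 1.5-fold, with Psmd14 (-0.29 ± 0.05) at the lower end. At an unadjusted p under 0.05 limma had 0 higher and 21 lower there, cyclic loess gave 10 falls, and leaving out mouse 1 or mouse 2 gave 8 or 9. Among 37 cytosolic chaperone genes 15 fell (40.5%) and 3 rose, with Dnajb4 (-0.90 ± 0.08) lowest and Hspa4l, a chaperone gene on the osmolyte list as well, highest (0.53 ± 0.05). Cytosolic ribosomal protein genes had 15 of 47 lower and 0 higher (1 higher and 18 lower at an unadjusted limma p under 0.05), but 4 higher and 5 lower after quantile normalization. Their falls also dropped to 6 without mouse 2 or mouse 4, and to 8 without mouse 1, its 290 mOsm array or the 450 mOsm array of mouse 4.

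**Figure D4:**
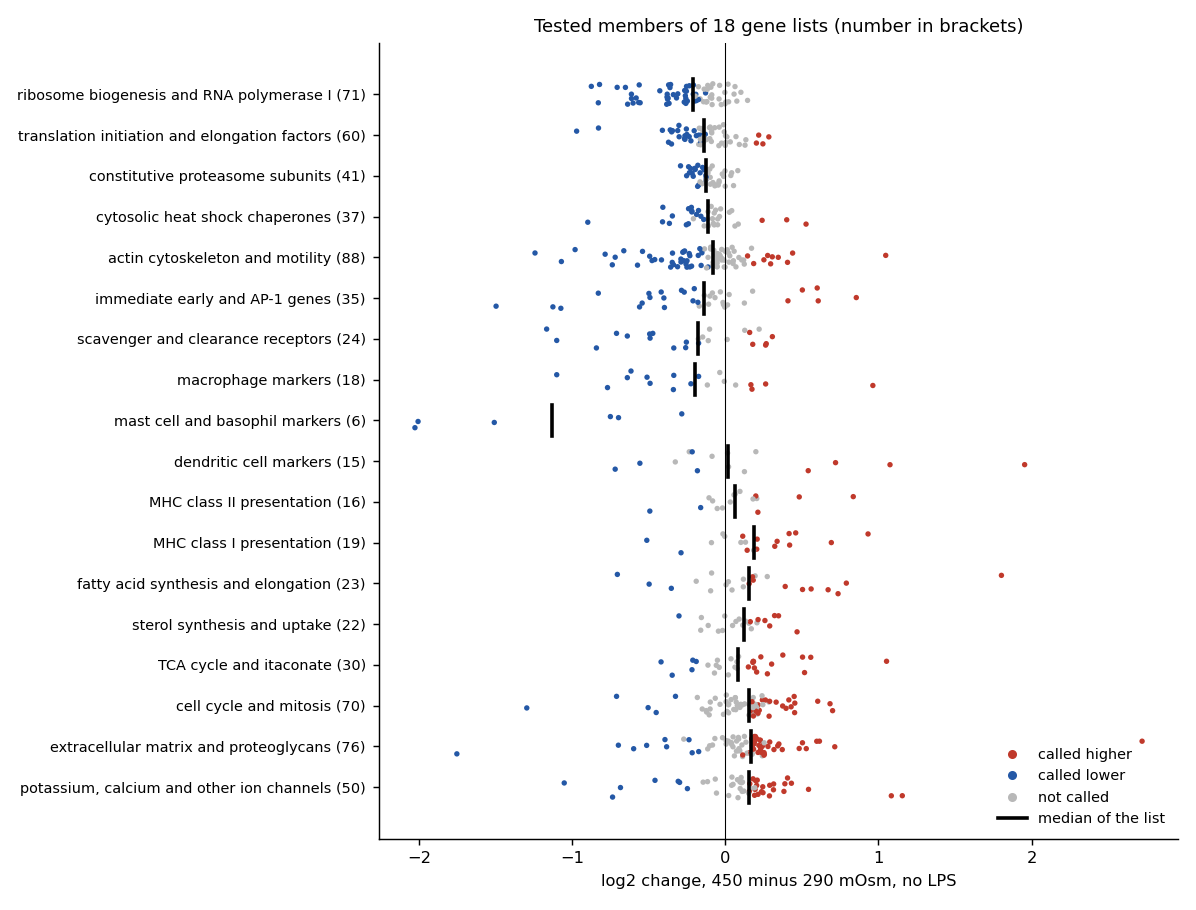
Log2 change from 290 to 450 mOsm without LPS (horizontal axis) of each tested member of 18 gene lists, with called rises in red, called falls in blue and the list's median as a black bar. No ribosome biogenesis or proteasome gene is red, and Vcan is the far right point among the matrix genes.

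More cell cycle genes rose than fell. Of 70 tested, 23 rose (32.9%) and 5 fell, with a median of 0.157. The mitotic kinase gene Aurkb read 8.04, 7.79, 7.83 and 7.78 at 290 mOsm and 8.73, 8.55, 8.38 and 8.58 at 450 mOsm (0.70 ± 0.08), and the S phase factor gene E2f2 (0.68 ± 0.10) and the cyclin gene Ccnd2 (0.60 ± 0.09) rose with it. Ccnd1, the other D-type cyclin gene here, read 8.78, 8.51, 8.41 and 8.72 and 7.15, 7.17, 7.22 and 7.69 (-1.30 ± 0.13), and the kinase gene Cdk6 fell by 0.71 ± 0.09. Of the 70 genes 21 belong to the dimmest 20%, where 26.7% of all genes rose, and they supplied 8 of the 23 rises. Cyclic loess gave 15 rises and 7 falls, and centring on all probe sets or leaving out mouse 2 gave 12 and 6. Leaving out single arrays gave 13 rises without the 290 mOsm array of mouse 4, and 15 without the 450 mOsm array of mouse 1 or of mouse 2. Histone genes had 8 of 22 higher (36.4%), led by the linker histone gene H1f2 (0.59 ± 0.10), but 2 without mouse 2, 4 without mouse 4, and 5 without the 290 mOsm array of mouse 4 or the 450 mOsm array of mouse 2. Centring on all probe sets gave 4 histone rises and 1 fall.

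The actin cytoskeleton list fell in many members by modest amounts: 37 of 88 genes fell and 10 rose, with a median of -0.081. Rhob, a small GTPase gene of the endosome and cortex, read 10.77, 10.77, 10.59 and 10.76 and 9.33, 9.53, 9.65 and 9.39 (-1.24 ± 0.09). The motor gene Myo1e (-1.07 ± 0.07) and Vcl, the gene of the adhesion linker vinculin (10.49 to 10.81 against 9.62 to 9.76, -0.98 ± 0.06), fell with it, while Iqgap2 was the one rise of at least 1.5-fold. Adhesion receptors split, with 17 of 62 higher and 22 lower: the integrin genes Itgb7 (1.20 ± 0.08) and Itga1 (1.03 ± 0.11) rose and the laminin receptor gene Itga6 fell by 1.63 ± 0.11.

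Protease genes and their inhibitors fell more often than they rose, 24 and 11 of 55 (43.6% and 20.0%), with a median of -0.104. The Mmp family had 7 of 10 tested members lower and 2 higher. Beside Mmp13, Mmp9 fell by 2.80 ± 0.17, a gelatinase gene on the neutrophil list, and the part of neutrophil RNA in it was not tested. Mmp2, the other gelatinase gene, rose by 0.98 ± 0.12. The Serpinb family had 5 of 8 lower, and Serpinb2 was its 1 rise. The secreted inhibitor gene Slpi rose by 0.93 ± 0.08. These families were picked from the same data, as those with the 6 highest shares of called falls among 180 symbol families of at least 8 tested genes. The background share was 23.7%. The others of the 6 were the Cops family of the COP9 signalosome (7 of 9 lower) and the Tomm family of the mitochondrial import pore (5 of 8). The Lsm family of RNA-binding rings (7 of 12) and the Alg family of glycosylation enzymes (5 of 10) completed them. Families this small at the top of such a ranking are a description only.

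Matrix genes rose in 37 of 76 cases (48.7%) and fell in 9, with a median of 0.17. After Vcan the values were much smaller, with the syndecan gene Sdc1 at 0.71 ± 0.07 and the thrombospondin gene Thbs1 at 0.61 ± 0.07. The largest fall was of Chst11, a chondroitin sulfotransferase gene, which read 10.68, 10.74, 10.30 and 10.65 and 8.51, 8.77, 8.95 and 9.13 (-1.75 ± 0.11). Of the 76 genes 30 were in the dimmest 20% and gave 15 of the rises, and without mouse 2, or without the 450 mOsm array of mouse 4 alone, the list had 20 rises and 8 falls. Without mouse 4 it had 16 and 8, and centring on all probe sets gave 22 and 12. The Col family of collagens had 20 of 30 higher, at a median level of 7.18, with a median change of 0.19. The Krtap and Nkx families, of hair keratin-associated proteins and homeobox factors not known from myeloid cells, each had 6 higher (of 8 and of 9), at median levels of 7.59 and 7.01. The Col, Krtap and Nkx families were picked from the top of the same ranking by share of called rises, for which the background was 20.6%. Of 14 stromal and endothelial markers 8 lay below the filter level on all 8 arrays, and the list had a summed linear signal of 1293 to 1362 at 290 mOsm and 1559 to 1806 at 450 mOsm. Their part in the matrix genes was not tested.

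More lipid synthesis genes rose than fell. For fatty acid synthesis and elongation, 10 of 23 rose (43.5%) and 3 fell, with a median of 0.156 (6 and 4 without mouse 2). Scd1, which makes monounsaturated fatty acids, read 8.81, 8.53, 8.35 and 8.42 at 290 mOsm and 10.66, 10.59, 10.09 and 9.99 at 450 mOsm. The acetyl-CoA synthetase gene Acss2 (0.79 ± 0.08) and the elongase gene Elovl6 (0.74 ± 0.11) rose with it, and the triglyceride synthesis gene Dgat2 fell by 0.70 ± 0.14. For sterol synthesis 7 of 22 rose (31.8%) and 1 fell, by small steps led by Mvd (0.47 ± 0.08). Without mouse 1 the list had 2 rises and 2 falls, without its 450 mOsm array 5 and 2, and without mouse 2 it had 3 rises. Centring on all probe sets gave 4 rises and 1 fall. The fall was of Hmgcs1, an early enzyme gene of the pathway (-0.30 ± 0.08), whose call was lost without mouse 2 (limma adjusted p = 0.0574).

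Carbon metabolism changed gene by gene. Of 30 TCA cycle genes 14 rose (46.7%) and 5 fell, with a median of 0.083. Without mouse 2 the list had 7 and 4, and after centring on all probe sets 8 and 6. Acod1, which makes the antimicrobial metabolite itaconate, read 10.39, 11.28, 10.14 and 11.26 and 11.93, 11.62, 11.85 and 11.87 (1.05 ± 0.18). Mice 2 and 4 were the higher pair at 290 mOsm for Acod1, and in salt all 4 lay within 11.62 to 11.93. In glycolysis 8 of 24 rose and 7 fell. The glucose transporter genes went in opposite directions, with Slc2a6 at 1.25 ± 0.09 and Slc2a3 at -1.15 ± 0.14, and the aldolase gene Aldoc rose by 1.22 ± 0.15. In prostaglandin and leukotriene metabolism Hpgd, the gene that inactivates prostaglandins, rose by 1.65 ± 0.12, Ltc4s, the leukotriene C4 synthase gene, by 1.05 ± 0.08, and Hpgds, a prostaglandin D synthase gene, fell by 1.29 ± 0.10. Serine synthesis split too, with Phgdh at 0.68 ± 0.11 and Psat1 at -1.20 ± 0.08.

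Of 30 iron and metallothionein genes 12 fell (40.0%) and 4 rose, with a median of -0.125. Falls of at least 2-fold numbered 3. The largest, -4.94, was beyond any of the 12 lowered genes described above, from which the neutrophil list was left out. The part of neutrophil RNA in this list was not tested. Mt2, a metallothionein gene, rose by 1.27 ± 0.10, and Cp, the gene of the copper ferroxidase ceruloplasmin, by 1.77 ± 0.21. Slc40a1, the iron exporter gene, read 11.15, 11.14, 11.33 and 11.04 and 9.93, 9.85, 10.18 and 10.30 (-1.10 ± 0.09). The quinone reductase gene Nqo1 rose by 0.95 ± 0.11, and the antioxidant list that holds it had 9 higher and 13 lower of 42, or 5 and 13 without mouse 1. Of 35 BCL2 family and apoptosis genes 10 rose and 6 fell, but 5 and 7 after centring on all probe sets, which turned their median from 0.036 to -0.02, and 6 and 5 without mouse 2. The list held the pro-death gene Bmf at 0.68 ± 0.08 and the survival gene Bcl2 at -0.97 ± 0.10.

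Of 50 ion channel genes 23 rose (46.0%) and 7 fell, and their median was 0.155. Leaving out mouse 1, 2 or 4 gave 15, 14 or 13 rises, leaving out the 290 mOsm array of mouse 1 gave 14, and leaving out the 450 mOsm array of mouse 4 gave 15. Centring on all probe sets gave 13 rises and 7 falls, and centring on the tested genes 26 and 6. Quantile normalization gave 18 and 7, and cyclic loess 19 and 7. The water and glycerol channel gene Aqp9, which lies beside Aldh1a2 among the tested genes, rose by 1.16 ± 0.14, and the lysosomal channel gene Mcoln3 read 7.53 to 7.65 and 8.54 to 8.81 (1.08 ± 0.07). Kcnj2, a potassium channel gene that sets the resting potential, fell by 1.05 ± 0.13. Of the 50 genes 17 were in the dimmest 20% and gave 9 of the rises. All 182 tested solute carrier genes together had 48 higher (26.4%) and 47 lower (25.8%), near the background shares.

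Genes of alternative activation, the state that interleukin 4 induces, included large changes in both directions, 11 higher and 8 lower of 24. Rnase2a, Ccl17 and Mgl2 were its largest rises. Il1rn, the interleukin 1 receptor antagonist gene, read 11.81, 11.93, 11.56 and 11.80 and 10.48, 10.31, 10.60 and 10.59 (-1.28 ± 0.07). Chil3, a chitinase-like lectin gene that is on the neutrophil list too, fell by 2.12 ± 0.16. The part of neutrophil RNA in the Chil3 value was not tested.

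The salt effect was then set beside the one measured with LPS, and the difference between them was tested in the same fit. The 2 effects rest on different arrays, from the same 4 mice. Of 10236 genes 2161 had a called difference (21.1%), or 1383 without mouse 2. Among the 24 genes in the plot of values by array, 16 did. Vcan rose by 2.72 ± 0.14 without LPS and stood at 0.00 ± 0.14 with it, a difference of -2.72 ± 0.20 (limma adjusted p = 3.13e-08). Pdgfb went from -2.02 ± 0.10 to -0.03 ± 0.10 (difference 1.99 ± 0.14), F3 from -2.52 ± 0.15 to -0.33 ± 0.15 (2.19 ± 0.22) and Ccl17 from 3.11 ± 0.30 to 1.00 ± 0.30 (-2.11 ± 0.43). For each of the 16 the effect without LPS was the larger in size. For the other 8 the difference did not pass: the differences were -0.13 ± 0.29 for Mgl2, -0.05 ± 0.26 for Klk1b11, -0.04 ± 0.25 for Scd1, 0.07 ± 0.23 for Ly6a2, -0.53 ± 0.23 for Serpinb2, 0.56 ± 0.22 for Cck, -0.72 ± 0.37 for Mcpt8 and -0.38 ± 0.36 for Cpa3. A difference that misses the threshold does not show that the effects are equal. The 24 genes were chosen for a large change without LPS, which favours a larger value there.

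**Figure D5:**
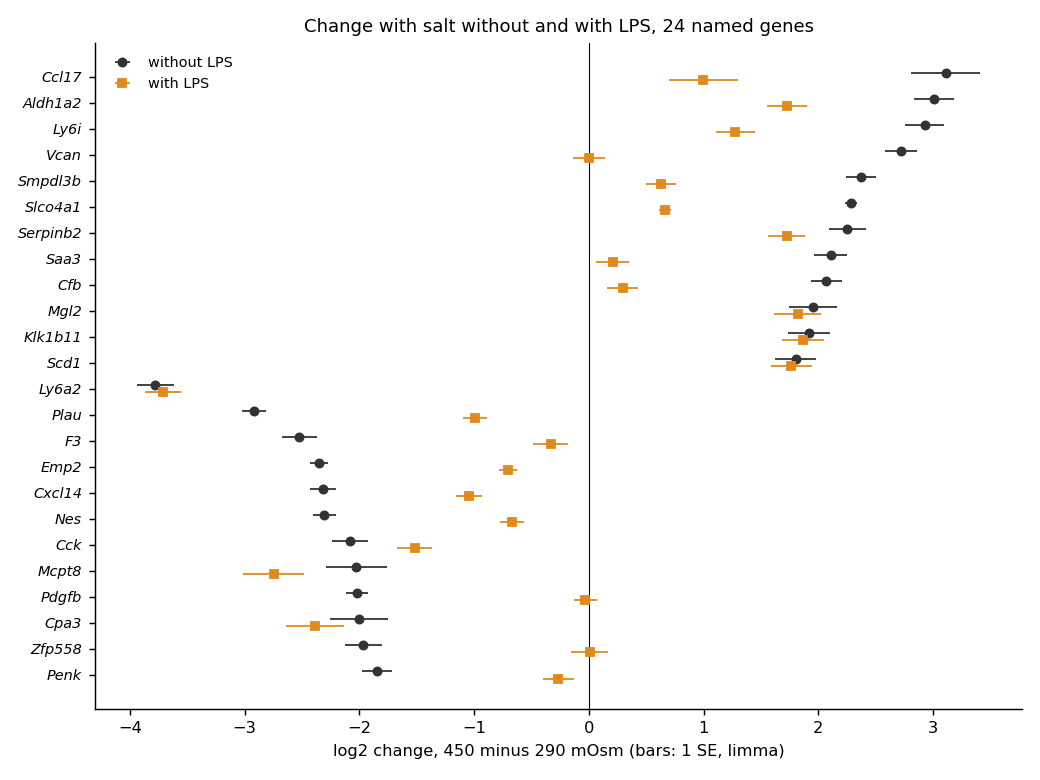
Log2 change from 290 to 450 mOsm without LPS (black circles) and with LPS (orange squares) for the 24 genes plotted by array, with bars of 1 standard error from limma. The orange squares of Vcan, Zfp558 and Pdgfb lie near 0, while those of Ly6a2, Scd1, Klk1b11 and Mgl2 lie close to the black circles.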

How the data were processed

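Affymetrix Mouse Gene 1.0 ST arrays measured RNA of 16 dendritic cell cultures of 4 mice, with 4 arrays per group. The deposited values are on a log2 scale and were made by RMA in oligo, per the submitters' processing notes (versions not given in the sources read). RMA's quantile step forces similar distributions on all arrays and can tilt small changes. Of 22549 probe sets, 20646 carry 1 gene symbol, 551 several and 1352 none in the platform annotation. Each gene took the brightest, by mean, of its probe sets with 1 symbol, among those above 6.83 (the median of all values) on at least 4 of 16 arrays. No count of reads exists for arrays, so precision is limited by the number of arrays and mice.

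Limma 3.58.1 (R 4.3.3) fitted the 4 group means to all 16 arrays (12 residual degrees of freedom). Contrasts were 450 minus 290 mOsm without LPS and its difference from the same contrast with LPS, with Benjamini-Hochberg adjustment over 10236 genes. Genes named are the 12 largest rises and falls that left out the 3 lists and symbols with prefixes of predicted genes or small RNAs, such as Rn (which also removed Rnase2a), the 8 largest test statistics each way, up to 3 called members each way of every gene list, and a preset group of known genes. Except for the preset group, named genes had to be called and to have the same direction in 4 of 4 mice. The members and lists were chosen with earlier results of these data known. The labels give a mouse number, which equals the replicate number in every group, so the numbers pair the samples by design. Deviations from the group means correlated from -0.146 to 0.433 (median 0.0955) across genes between arrays of 1 mouse and with a median of -0.0355 between mice. For 290 and 450 mOsm without LPS the same-mouse values were lower, -0.146 to 0.201 (median 0.041), against a median of 0.0255 between mice. Alternatives covered the pairing, the arrays fitted, the filter, the scaling, the probe sets of a gene, the variance model, array weights and leaving out mice or arrays. Centring on all probe sets was chosen after seeing the data.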

Additional observations from a re-analysis of the deposited data

Results flagged for a closer look

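In 166 genes named in the report and 2 groups of 4 arrays each, single arrays stood apart from the other 3 of their group by the Dixon criterion in the cases given here. Chance alone gives about 1 in 20 groups. Such arrays numbered 12 in 332 gene and group pairs, below that rate, so the cases are a description only. At 290 mOsm mouse 3 read 7.52 for Cd200, 8.81 for Dnajb4, 8.11 for Egr1, 10.59 for Rhob and 6.74 for Zfp558, each below the others. Mouse 2 read 6.75 for Slc5a3, below the others. At 450 mOsm mouse 4 read 7.69 for Ccnd1, 6.23 for Prg2 and 8.68 for Tnfrsf11a, above the others, and 8.82 for H2-Q4, below them. Mouse 3 read 9.73 for Acss2 and 8.88 for Ebi3 at 450 mOsm, below the others.

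The salt effect differed between cells with and without LPS for 16 of the 24 genes plotted by array, tested as a difference in limma. With minus without LPS, the log2 difference was -2.11 for Ccl17, -1.28 for Aldh1a2, -1.65 for Ly6i and -2.72 for Vcan. It was -1.74 for Smpdl3b, -1.62 for Slco4a1, -1.90 for Saa3 and -1.78 for Cfb. Among the lowered genes it was 1.93 for Plau, 2.19 for F3, 1.65 for Emp2 and 1.27 for Cxcl14. It was 1.64 for Nes, 1.99 for Pdgfb, 1.97 for Zfp558 and 1.58 for Penk.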

How the results depend on the processing

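The count of 4530 called genes stayed within 1.5 times under every alternative run, from 3200 to 5427. Leaving out a mouse or an array gave 3200 to 4622 called genes, with 1346 to 2244 higher and 1816 to 2437 lower, and 1383 to 2266 called differences from the salt effect with LPS (2161 in all arrays). Centring on all probe sets, chosen after seeing the data, gave 1343 higher genes. With the mouse as a replicate block 4763 genes were called, 2214 higher and 2549 lower, with 2359 called differences. Among the genes named in the report that block changed no other call than that of Il12b. Of 157 called genes named, 153 kept direction and call under every alternative that tested them, 4 lost the call under at least 1, and none changed direction. Of the genes that did not pass, 4 passed under at least 1 alternative: Il12b, Flt3, Cd40 and Zbtb46. Without a filter on dim genes 56.1% of calls were rises, against 46.4% with it. Signal over background limits the dimmest genes, where small folds are understated. The log2 scale, the single strain, and cultures from 4 mice limit what the comparison covers.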
